A study of Drosophila melanogaster with 5 samples.

Results

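The genes described here are 33 genes of the muscle contractile apparatus, measured in RNA from the hemolymph of Drosophila larvae. They were chosen by name from the families that build the sarcomere, that is thick and thin filament proteins, Z-disc proteins, calcium handling proteins and the dystrophin complex, with the actins left out. All 33 were found among the 17807 genes of the count table, and Unc-89 was matched through its synonym Obsc. For this description 24 of them were classed as restricted to muscle, and 9 as genes that other cells also use (Tm1, tmod, Zasp52, SERCA, Dys, Dg, Scgdelta, Msp300 and Mef2). The classes came from general knowledge of the genes, but they were set with earlier results of these data known.

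The abd-A libraries came from larvae of Cg-Gal4 females crossed to UAS-abd-A males, in which the Cg-Gal4 driver, active in fat body and hemocytes, switches on the Hox gene abd-A. The CS libraries came from Cg-Gal4 crossed to the wild-type strain Canton-S (Cg-Gal4>CS). There were 3 abd-A libraries and 2 CS libraries, each from hemolymph pooled from 20 larvae at 96 to 102 hours after egg laying and raised at 25 °C, so a library describes a pool and not an animal, and the driver does not separate fat body from blood cells. Every larva carried Cg-Gal4, and the source of the RNA was the pelleted cells of the hemolymph, not dissected muscle.

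The sarcomere is the repeating unit of striated muscle, in which thick filaments of myosin pull on thin filaments of actin that are anchored at the Z-disc. Calcium released from internal stores frees the thin filament for contraction by way of troponin and tropomyosin, and giant elastic proteins tie thick filaments to Z-discs. Circulating hemocytes do not build sarcomeres, whereas they do use cytoplasmic myosin, cytoplasmic tropomyosin, calcium pumps and adaptor proteins of the cytoskeleton.

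Levels are given in CPM, counts scaled by the library total and its TMM factor. Total counts on genes lay between 3848911 and 4959111 in the abd-A libraries and were 1252969 and 2567624 in the CS libraries, which is between 15.4% and 19.8%, and 5.01% and 10.3%, of the stated minimum of 25000000 reads. The library kit keeps the strand, but the strand setting of the counting is not given in the sources used here, so the count of a gene, and every level made from it, may hold reads from the strand opposite to that gene. A count of 3, taken as the floor, is worth 0.638 to 0.817 CPM in the abd-A libraries and 2.06 and 1.16 CPM in the CS libraries. The targeted gene abd-A had counts of 620, 474 and 638 in the abd-A libraries, against 0 and 21 in the CS libraries. Groups were compared with the quasi-likelihood test of edgeR, with p-values adjusted over 11624 genes after Benjamini and Hochberg (BH). A gene was called lower or higher when this BH-adjusted p was under 0.05 and the change reached 2-fold, and SE is the standard error of a log2 fold change.

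Many transcripts of the sarcomere were lower in the abd-A libraries. Of the 31 members with enough counts to be tested, 16 were called lower and 1, Zasp52, was called higher, while 12.7% of all genes tested were called lower and 11.0% were called higher. The 3 abd-A libraries all lay below both CS libraries in 22 members, against 29.3% of all genes tested, and all above in 4 members, against 27.3% of all genes. The remaining 5 members overlapped. The median log2 fold change of the 31 tested members was -1.28, beside -0.17 for all genes tested. In bulk RNA of this kind, fewer muscle cells or fragments in a pool and less muscle RNA per cell cannot be told apart. CPM is relative to the library, and the paper reports more circulating hemocytes when Cg-Gal4 drives abd-A. The part of that increase in the levels of the members was not tested.

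Members restricted to muscle made up 22 of the 31 tested members and 14 of the 16 called lower. Among the 24 muscle-restricted members, 22 were tested and 14 were called lower, beside 12.7% of all genes tested. Their median log2 fold change was -1.76. The only 2 of them with a fold change above 0, Strn-Mlck and RyR, had unadjusted p of 0.205 and 0.88 (edgeR) and were called in 0 of the 14 alternative fits of Strn-Mlck and 0 of the 13 of RyR. Among the 9 members of broader use, 2 were called lower, beside 12.7% of all genes, and 1 was called higher, beside 11.0%, with a median log2 fold change of -0.72. With so few calls nothing is read from the shares of these 9 members. The summed level of the muscle-restricted members was 666, 796 and 612 CPM in the abd-A libraries, against 2048 and 4030 CPM in the CS libraries. The abd-A libraries lay close together and far below both CS libraries, with a mean of 691 ± 94.7 CPM over the abd-A libraries (SD, n = 3) against 3039 ± 1401 CPM over the CS libraries (SD, n = 2), so that the CS mean was 4.40 times as high. The members of broader use summed to 2725, 2558 and 2916 CPM in the abd-A libraries, against 2709 and 4275 CPM in the CS libraries, and these ranges overlapped.

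**Figure D1:**
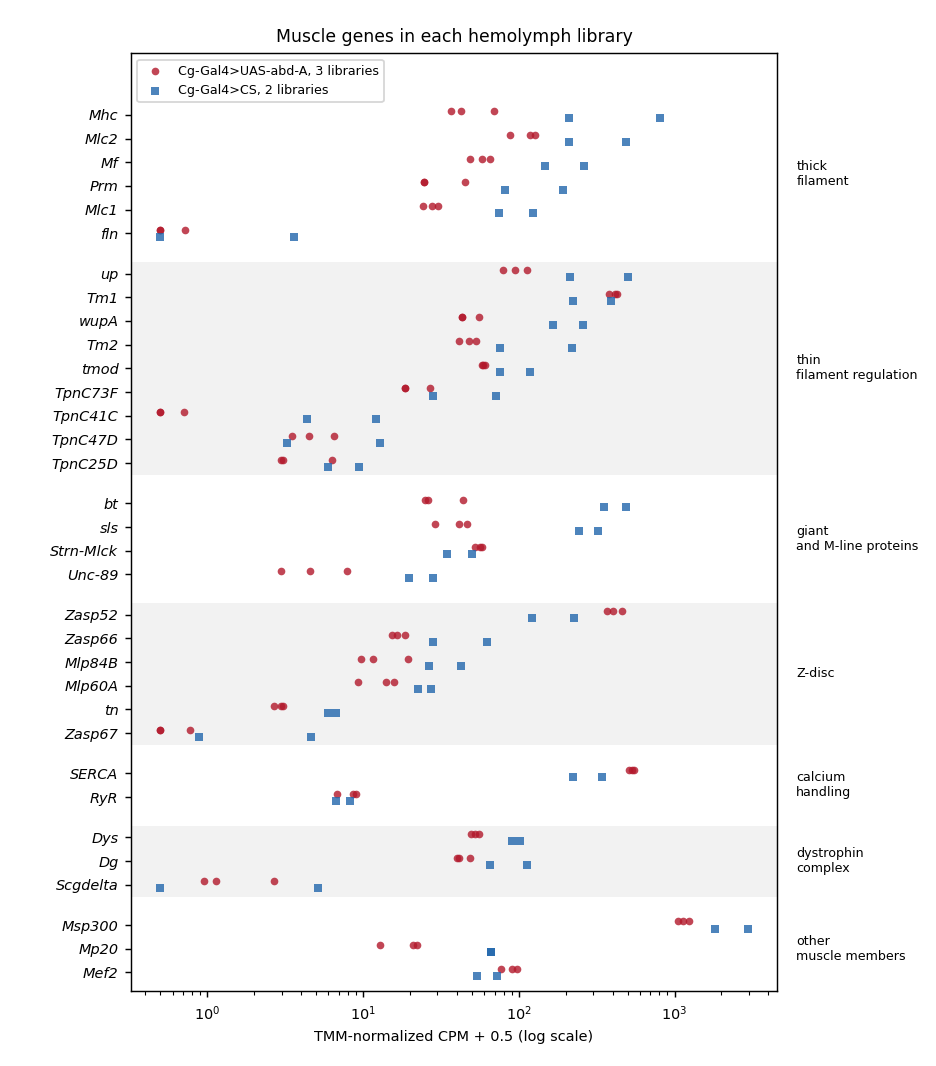
Level of each of the 33 muscle genes in each library, as TMM-normalized CPM plus 0.5 on a log axis, with the 3 abd-A libraries as red circles and the 2 CS libraries as blue squares, grouped by role. The abd-A libraries lie to the left of both CS libraries in 22 of the 31 tested genes, among them all 5 tested genes of the thick filament, and to the right in Zasp52, SERCA, Strn-Mlck and Mef2.

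The thick filament showed the most uniform difference by role. All 5 of its tested members were called lower, beside 12.7% of all genes tested. Their sum with fln was 267, 315 and 241 CPM in the abd-A libraries, against 721 and 1876 CPM in the CS libraries. Mhc (FBgn0264695, chromosome 2L of dm6, 16766566 to 16788766), the myosin heavy chain and the only gene for it in fly muscle, had 36.0, 68.9 and 41.9 CPM in the abd-A libraries, against 210.2 and 806.4 CPM in the CS libraries. The 3 abd-A libraries were within a factor of 1.92 of each other, and the CS libraries differed by 3.84 times. The log2 fold change of Mhc was -3.38 (SE 0.50, edgeR BH-adjusted p = 0.00131), or 10.4-fold lower. With CS replicate 2 left out it was -2.13, and with CS replicate 1 left out it was -4.06, so its size depended on the CS library used while the call did not.

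The light chains of muscle myosin sit on the neck of the heavy chain. Mlc2 (FBgn0002773, chromosome 3R, 30171438 to 30174551), the regulatory light chain, had 117.3, 125.9 and 87.0 CPM in the abd-A libraries, against 208.1 and 490.7 CPM in the CS libraries. Its log2 fold change was -1.67 (SE 0.34, edgeR BH-adjusted p = 0.00668). It was -0.94 with CS replicate 2 left out, which is under 2-fold and ended the call. Mlc1, the essential light chain, had 23.7, 27.2 and 30.0 CPM in the abd-A libraries, against 74.2 and 122.2 CPM in the CS libraries, a log2 fold change of -1.87 (SE 0.30). The groups did not overlap for either light chain.

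Paramyosin, encoded by Prm, forms the core of the thick filament in invertebrates. Prm had 24.1, 44.7 and 24.3 CPM in the abd-A libraries, against 81.1 and 192.8 CPM in the CS libraries, with a log2 fold change of -2.15 (SE 0.41). Mf encodes myofilin, another thick filament protein, and had 65.3, 47.9 and 57.5 CPM in the abd-A libraries, against 147.7 and 261.1 CPM in the CS libraries, with a log2 fold change of -1.85 (SE 0.29). Both were called lower, and in both the lowest CS library was above the highest abd-A library. The flightin gene fln, which serves the flight muscle of the adult, had counts of 1, 0 and 0 in the abd-A libraries, against 0 and 8 in the CS libraries, and was not tested.

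Of the 9 genes that regulate the thin filament, all tested, 4 were called lower, beside 12.7% of all genes tested. Each of these 4 is restricted to muscle. wupA (FBgn0283471, chromosome X, 18105568 to 18116922), which encodes troponin I, the inhibitory subunit, had 42.9, 55.0 and 42.6 CPM in the abd-A libraries, against 164.9 and 257.6 CPM in the CS libraries. Its log2 fold change was -2.18 (SE 0.27, edgeR BH-adjusted p = 0.000528), or 4.52-fold lower, and it lay between -2.47 and -1.84 over the 5 fits that each left out 1 library. up (FBgn0004169, chromosome X, 13593474 to 13602578), which encodes troponin T, the subunit bound to tropomyosin, had 94.1, 112.2 and 79.2 CPM in the abd-A libraries, against 213.0 and 501.2 CPM in the CS libraries. Its log2 fold change was -1.91 (SE 0.34), and the groups did not overlap.

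Troponin C is the calcium sensor of the thin filament. Of the 4 troponin C genes among the members, 1 was called lower, beside 12.7% of all genes tested. Apart from TpnC73F, none of the 4 had more than 32 counts in a library. TpnC73F, the most abundant of these 4 genes, had 18.1, 26.4 and 18.1 CPM in the abd-A libraries, against 27.5 and 70.6 CPM in the CS libraries, a log2 fold change of -1.25 with an edgeR BH-adjusted p of 0.0631. The gap between the highest abd-A library and the lowest CS library was narrow, and 8 of 14 alternative fits called the gene. TpnC41C had counts of 0, 0 and 1 in the abd-A libraries, against 17 and 10 in the CS libraries, and was at least 11.0-fold lower when 3 counts per library are taken as the floor. Its edgeR BH-adjusted p was 0.0365, and lay between 0.0849 and 0.123 with CS replicate 1 or any 1 abd-A library left out. TpnC47D, with 2.98 to 5.99 CPM in the abd-A libraries and 2.75 and 12.4 CPM in the CS libraries, and TpnC25D, with 2.45 to 5.81 CPM in the abd-A libraries and 5.50 and 8.92 CPM in the CS libraries, overlapped between groups. The troponin C genes are closely related in sequence, and how reads matching more than 1 gene were counted is not given in the sources used here.

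Of the tropomyosins, which lie along the thin filament, Tm2 was called lower and Tm1 was not called. Tm2, the gene for muscle tropomyosin, had 47.4, 52.3 and 40.9 CPM in the abd-A libraries, against 75.6 and 218.4 CPM in the CS libraries, a log2 fold change of -1.66 (SE 0.39, edgeR BH-adjusted p = 0.0131). It was -0.71 without CS replicate 2, under 2-fold, and the edgeR BH-adjusted p was 0.069, 0.0574 and 0.0629 without abd-A replicate 1, 2 and 3. Its neighbor Tm1, which makes muscle and cytoplasmic tropomyosins, had 427.1, 377.3 and 414.3 CPM in the abd-A libraries, against 223.3 and 388.7 CPM in the CS libraries. These values of Tm1 overlapped, with a log2 fold change of 0.41 (SE 0.26). tmod, which caps the pointed end of actin filaments, had 59.9, 58.8 and 57.9 CPM in the abd-A libraries, against 75.6 and 117.9 CPM in the CS libraries. The groups did not overlap, but its log2 fold change of -0.72 was under 2-fold and its edgeR BH-adjusted p was 0.075.

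Among the giant proteins, bt and sls were far lower in the abd-A libraries. bt (FBgn0005666, chromosome 4, 724400 to 776474) encodes projectin, a titin-like kinase along the thick filament, and had 24.4, 43.0 and 25.5 CPM in the abd-A libraries, against 351.7 and 489.1 CPM in the CS libraries. Every abd-A library held a small part of the level of either CS library, and the CS libraries were close to each other. The log2 fold change of bt was -3.77 (SE 0.30, edgeR BH-adjusted p = 5.69e-05), or 13.6-fold lower, and it lay between -4.09 and -3.54 over the 5 fits that each left out 1 library. sls (FBgn0086906, chromosome 3L, 2039681 to 2115611), whose products link the Z-disc to the thick filament, had 28.6, 46.3 and 41.1 CPM in the abd-A libraries, against 243.9 and 323.5 CPM in the CS libraries. Its log2 fold change was -2.88 (SE 0.27, edgeR BH-adjusted p = 0.000114), or 7.35-fold lower.

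The exons of sls are the only exons among the 16 lower members that share bases with a gene on the opposite strand. The antisense RNA gene asRNA:CR42860 covers 1089 of these bases and reached 118, 104 and 123 counts per kb in the abd-A libraries, against 49.3 and 68.4 counts per kb in the CS libraries. sls itself had 2.17, 2.88 and 3.27 counts per kb in the abd-A libraries, against 6.02 and 14.1 counts per kb in the CS libraries. The antisense gene was thus counted more densely than sls in every library, and its own log2 fold change was -0.16 with an edgeR BH-adjusted p of 0.723. A wider comparison took 374 to 395 pairs per library of an antisense RNA gene and a coding gene it overlaps. Only antisense genes with a mean of at least 10 counts over the libraries, and coding genes with a count, were kept. In these pairs the median ratio of counts per kb, antisense over coding, was 5.79 to 8.11 in the abd-A libraries. It was 10.7 and 7.12 in the CS libraries. Keeping only antisense genes with counts can raise this ratio, so it does not speak for all antisense genes. Among the members that were not called lower, the exons of SERCA contain CG2812 on the opposite strand, over 1325 bases, with counts of 0, 4 and 2 in the abd-A libraries, against 4 and 7 in the CS libraries, and exons of Tm1, Strn-Mlck, TpnC25D and fln share 54 to 801 bases with a gene on that strand. The part of opposite-strand reads in the levels of the members was not tested.

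Of the other giant and M-line members, Unc-89 encodes obscurin of the M-line, where thick filaments are joined. It had 2.46, 7.36 and 4.04 CPM in the abd-A libraries, against 19.2 and 27.5 CPM in the CS libraries. The groups did not overlap, with a log2 fold change of -2.34 (SE 0.67, edgeR BH-adjusted p = 0.0309). Leaving out abd-A replicate 1 gave Unc-89 an edgeR BH-adjusted p of 0.115, and leaving out abd-A replicate 3 gave 0.11. Strn-Mlck, related to the myosin light chain kinases, had 57.7, 55.8 and 51.5 CPM in the abd-A libraries, against 49.5 and 34.1 CPM in the CS libraries. It was the only muscle-restricted member in which every abd-A library lay above both CS libraries, and at a log2 fold change of 0.41 (SE 0.30) it was not called.

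Z-disc members included the only call in the opposite direction. Zasp52 (FBgn0265991, chromosome 2R, 15762565 to 15817004), a PDZ and LIM domain protein of Z-discs that also works at integrin adhesions, had 400.7, 368.9 and 459.7 CPM in the abd-A libraries, against 120.9 and 224.2 CPM in the CS libraries. All abd-A libraries were above both CS libraries, with a log2 fold change of 1.24 (SE 0.29, edgeR BH-adjusted p = 0.0121), or 2.36-fold higher. The call ended without CS replicate 1, where the log2 fold change was 0.86, and without abd-A replicate 1 or abd-A replicate 3, where the edgeR BH-adjusted p was 0.0627 and 0.066. Its relative Zasp66, found at Z-discs of muscle, had 18.1, 16.1 and 14.9 CPM in the abd-A libraries, against 27.5 and 62.1 CPM in the CS libraries. Zasp66 was called lower, with a log2 fold change of -1.46 and an edgeR BH-adjusted p of 0.0318, and was not called without CS replicate 2 or any 1 abd-A library, where the edgeR BH-adjusted p lay between 0.0992 and 0.166. The third gene of the family, Zasp67, had counts of 0, 1 and 0 in the abd-A libraries, against 6 and 1 in the CS libraries, and was not tested.

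The LIM proteins of muscle and the remaining Z-disc member were lower in level without passing the test. Mlp84B had 9.16, 19.1 and 11.1 CPM in the abd-A libraries, against 26.1 and 42.3 CPM in the CS libraries, with an edgeR BH-adjusted p of 0.0594. Mlp60A had 15.4, 8.72 and 13.6 CPM in the abd-A libraries, against 26.8 and 22.1 CPM in the CS libraries, with a log2 fold change of -0.95 (SE 0.49). tn, whose product helps to maintain the myofibril, had 2.18 to 2.55 CPM in the abd-A libraries, against 5.50 and 6.21 CPM in the CS libraries. Mlp84B was called in 9 of 14 alternative fits, Mlp60A in 0 of 14 and tn in 0 of 13. In these 3 genes all abd-A libraries lay below both CS libraries, as in 29.3% of all genes tested.

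Neither of the 2 calcium handling genes was called. SERCA, the pump that returns calcium to the endoplasmic or sarcoplasmic reticulum in every cell, had 529.0, 511.6 and 551.4 CPM in the abd-A libraries, against 221.2 and 342.5 CPM in the CS libraries. Its groups did not overlap, and its log2 fold change was 0.91 (SE 0.24, edgeR BH-adjusted p = 0.022), which is under the 2-fold threshold. RyR, the calcium release channel of the sarcoplasmic reticulum, had 8.49, 6.27 and 8.09 CPM in the abd-A libraries, against 6.18 and 7.76 CPM in the CS libraries. These values overlapped, and the log2 fold change of 0.12 (SE 0.79) changed sign with the normalization, to -0.02 under DESeq2 scaling and -0.06 when scaled by totals.

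The dystrophin complex joins the cytoskeleton to the extracellular matrix in muscle and in other tissues. Dg, for dystroglycan, its receptor in the membrane, had 40.9, 48.2 and 39.6 CPM in the abd-A libraries, against 65.3 and 112.5 CPM in the CS libraries, a log2 fold change of -1.06 (SE 0.30, edgeR BH-adjusted p = 0.0297). That change sat just past 2-fold, and with CS replicate 2 or any 1 abd-A library left out the edgeR BH-adjusted p lay between 0.0779 and 0.127. Dys, for dystrophin itself, had 51.9, 55.0 and 48.9 CPM in the abd-A libraries, against 101.7 and 90.4 CPM in the CS libraries, and at a log2 fold change of -0.88 (SE 0.24) it was just short of 2-fold. Dys was called in 5 of 14 alternative fits. Scgdelta, for a sarcoglycan, had counts of 2, 8 and 3 in the abd-A libraries, against 0 and 12 in the CS libraries, and overlapped.

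Of the 3 members left, Msp300 (FBgn0261836, chromosome 2L, 5100877 to 5207002), a giant spectrin-repeat protein that links nuclei and the Z-disc to the cytoskeleton, was the most abundant member in every library. It had 1125, 1060 and 1246 CPM in the abd-A libraries, against 1830 and 2941 CPM in the CS libraries, and made up 31.6% to 35.3% of the summed CPM of the 33 members in the abd-A libraries and 38.5% and 35.4% in the CS libraries. Its log2 fold change was -1.06 (SE 0.24, edgeR BH-adjusted p = 0.0117), and it was -0.70 without CS replicate 2. Without abd-A replicate 1, 2 or 3 the edgeR BH-adjusted p of Msp300 was 0.0873, 0.0724 and 0.0602. Mp20, a calponin-like protein of muscle, had 20.6, 21.8 and 12.3 CPM in the abd-A libraries, against 65.9 and 65.9 CPM in the CS libraries, a log2 fold change of -1.86 (SE 0.35). Mef2, the transcription factor that drives muscle differentiation, had 90.3, 76.3 and 97.5 CPM in the abd-A libraries, against 71.4 and 53.1 CPM in the CS libraries. Every abd-A library was above both CS libraries in Mef2, which was not called at a log2 fold change of 0.51 (SE 0.27).

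**Figure D2:**
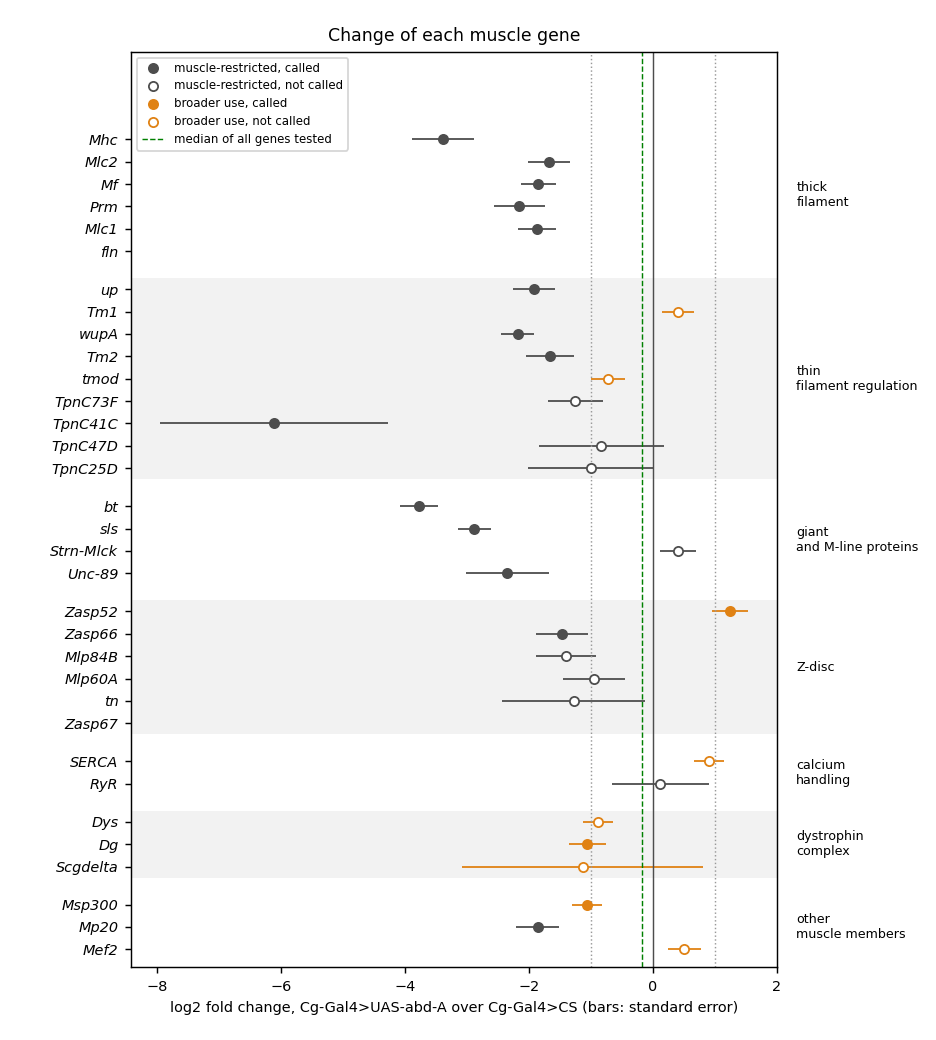
Log2 fold change of each tested muscle gene, abd-A libraries over CS libraries, with its standard error as a bar, grouped by role, dotted lines at 2-fold and the median of all genes tested as a dashed green line. Filled markers are genes called at an adjusted p under 0.05 (edgeR, BH) and at least 2-fold, and they lie left of the median of -0.17 except for Zasp52 at 1.24.

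The calls differed in how firmly they held. Of the 16 members called lower, 9 were called lower in every one of the 14 alternative fits, namely Mhc, Mlc1, Prm, Mf, up, wupA, bt, sls and Mp20. The number of members called lower was 10 in the fits without abd-A replicate 1 or without abd-A replicate 3, 11 without abd-A replicate 2 or without CS replicate 2 and 18 without CS replicate 1. The median over all genes, -0.17 under TMM, shifted to -0.32 under DESeq2 scaling, -0.35 under upper-quartile scaling and -0.36 when scaled by totals, and 19 members were called lower under each of these scalings.

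The members also changed in proportion to each other, which does not depend on how libraries are scaled. SERCA made up 15.3% to 15.6% of the summed CPM of the 33 members in the abd-A libraries, against 4.65% and 4.12% in the CS libraries, and Zasp52 11.0% to 13.0% in the abd-A libraries, against 2.54% and 2.70% in the CS libraries. Tm1 made up 11.3% to 12.6% in the abd-A libraries, against 4.69% and 4.68% in the CS libraries. Among the muscle-restricted members alone, bt made up 3.66% to 5.41% in the abd-A libraries, against 17.2% and 12.1% in the CS libraries, while Mlc2 made up 14.2% to 17.6% in the abd-A libraries, against 10.2% and 12.2% in the CS libraries. Each of these shares was separated between the groups, and the shares of bt and Mlc2 differed in opposite directions.

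Levels per kb of exon put the members in a different order in the 2 groups. On this scale SERCA was highest on average in the abd-A libraries, at 61.9 to 66.7 CPM per kb, followed by Mlc2 at 38.1 to 55.1, Tm1 at 38.5 to 43.6, up at 31.3 to 44.4 and Zasp52 at 33.8 to 42.1 CPM per kb. SERCA stood above the other 4, whose ranges overlapped. In the CS libraries Mlc2 was highest on average, at 91.1 and 215 CPM per kb, followed by up at 84.2 and 198, wupA at 83.3 and 130, Mp20 at 69.6 in both and Mlc1 at 52.5 and 86.4 CPM per kb, and the ranges of neighbors in this order overlapped, except that wupA lay above Mp20 in both libraries. The long gene bt had 0.869 to 1.54 CPM per kb in the abd-A libraries, against 12.6 and 17.5 CPM per kb in the CS libraries.

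Ratios within a library compared subunits that muscle holds together. Mhc per kb was 0.0774, 0.138 and 0.122 of Mlc2 in the abd-A libraries, against 0.255 and 0.415 in the CS libraries, and 0.881, 0.912 and 1.02 of Prm in the abd-A libraries, against 1.53 and 2.47 in the CS libraries. bt was 1.79, 1.96 and 1.31 of sls in the abd-A libraries, against 3.04 and 3.18 in the CS libraries. These ratios did not overlap between the groups. The ratio of up to wupA, 2 subunits of troponin, was 1.71, 1.59 and 1.45 in the abd-A libraries, against 1.01 and 1.52 in the CS libraries, and that of Mlc2 to Mlc1 was 3.06, 2.86 and 1.79 in the abd-A libraries, against 1.74 and 2.48 in the CS libraries, and both overlapped.

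Both cytoplasmic counterparts of the muscle myosin light chains were called higher. Of 9 matched genes of non-muscle myosin, its control and unconventional myosins, 3 were called higher, beside 11.0% of all genes tested. The other 6 were not called, and the median log2 fold change of all 9 was 0.66. The heavy chain gene of non-muscle myosin, zip, was not matched, so it has no level here. sqh, the regulatory light chain of non-muscle myosin, had 390.0, 308.4 and 344.3 CPM in the abd-A libraries, against 42.6 and 99.3 CPM in the CS libraries, a log2 fold change of 2.27 (SE 0.35, edgeR BH-adjusted p = 0.00165). Mlc-c, its essential light chain, had 392.9, 377.0 and 439.0 CPM in the abd-A libraries, against 82.4 and 129.9 CPM in the CS libraries, a log2 fold change of 1.92 (SE 0.26). flw, the catalytic subunit of the phosphatase that acts on the light chain, had 178.8, 140.8 and 148.1 CPM in the abd-A libraries, against 32.97 and 52.4 CPM in the CS libraries, a log2 fold change of 1.85 (SE 0.29). In all 3 the lowest abd-A library was above the highest CS library.

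Set against these counterparts per kb, the muscle light chains were the less abundant form in the abd-A libraries. Mlc2 was 0.208, 0.282 and 0.174 of sqh in the abd-A libraries, against 3.37 and 3.41 in the CS libraries. Mlc1 was 0.0597, 0.0715 and 0.0676 of Mlc-c in the abd-A libraries, against 0.890 and 0.930 in the CS libraries. Tm2 was 0.416, 0.520 and 0.370 of Tm1 in the abd-A libraries, against 1.27 and 2.11 in the CS libraries. That ratio rests on exon lengths merged over all transcripts, 2613 bases for Tm2 and 9804 bases for Tm1. In CPM, Tm1 was above Tm2 in both CS libraries, at 223.3 and 388.7 against 75.6 and 218.4 CPM. Since Tm1 also makes muscle tropomyosins, the ratio does not give the muscle share of tropomyosin. All 3 ratios were separated between the groups, and the CS libraries, which differed in the levels themselves, were close to each other in both light chain ratios.

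**Figure D3:**
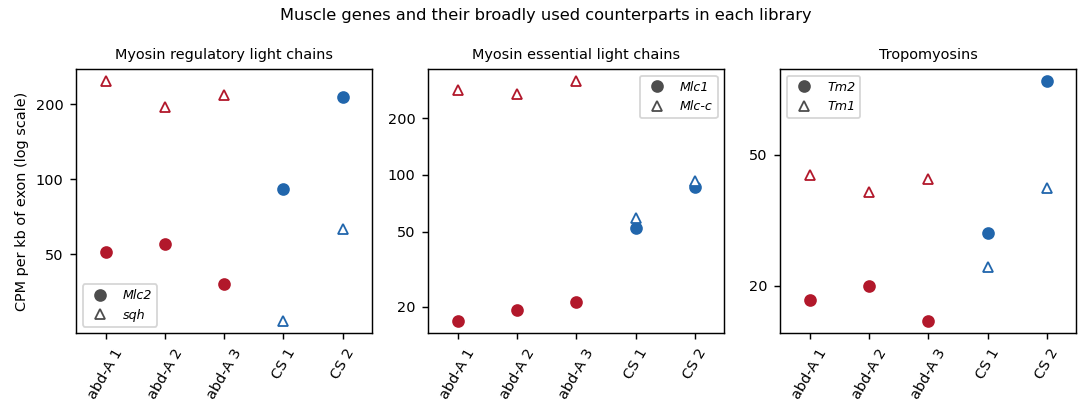
Levels in CPM per kb of exon, on log axes, of 3 muscle genes (filled circles) and their counterparts of broader use (open triangles) in the 3 abd-A libraries (red) and the 2 CS libraries (blue). In the abd-A libraries each counterpart lies above its muscle gene, and in the CS libraries Mlc2 lies above sqh, Tm2 lies above Tm1, and Mlc1 lies just under Mlc-c. Without division by exon length, Tm1 lies above Tm2 also in the CS libraries.

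Other genes of the muscle were followed in a list of 31 that holds actins, further sarcomere and dystrophin complex genes, membrane proteins, muscle glutamate receptors and myogenic regulators. Of these, 20 were tested, 6 were called lower, beside 12.7% of all genes tested, and 2 were called higher, a share near the 11.0% of all genes tested. The median log2 fold change of the 20 was -1.50. Act57B, a larval muscle actin, had 125.2, 179.5 and 106.6 CPM in the abd-A libraries, against 375.8 and 903.8 CPM in the CS libraries, a log2 fold change of -2.23 (SE 0.36, edgeR BH-adjusted p = 0.00228). Act87E, a second actin of larval muscle, had a log2 fold change of -1.99 (SE 0.43), and Act88F, the actin of the indirect flight muscle, was called higher, with 32.4, 51.5 and 37.9 CPM in the abd-A libraries, against 9.62 and 1.55 CPM in the CS libraries. Without abd-A replicate 2, Act88F had an edgeR BH-adjusted p of 0.0718. Actin genes are nearly identical in sequence, so these 3 levels are uncertain.

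Actn, the alpha-actinin that cross-links actin at the Z-disc and elsewhere, had 199.4, 188.5 and 202.8 CPM in the abd-A libraries, against 410.8 and 401.5 CPM in the CS libraries. Its groups were tight and separate, with a log2 fold change of -1.04 (SE 0.19). The other lower calls were sals, which lengthens thin filaments, at -2.13, the syntrophin gene Syn1 at -1.97 and the sarcoglycan gene Scgalpha at -3.67. Calls of sals and Scgalpha ended without abd-A replicate 2, at edgeR BH-adjusted p of 0.0509 and 0.0834, and without abd-A replicate 3, at 0.0531 and 0.0647. The second higher call was prc, which encodes pericardin, a matrix protein of the heart, with 128.7, 246.0 and 82.1 CPM in the abd-A libraries, against 15.1 and 3.49 CPM in the CS libraries, a log2 fold change of 4.16 (SE 0.67). Exons of 11 genes of this list, and of 6 of the 33 members, overlap a gene on the opposite strand, and among the calls in this list this was the case for Act87E, Actn, sals, Syn1 and prc.

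Markers of fat body, neurons, cuticle and testis were among the genes called lower, while no salivary gland marker was called and midgut markers gave calls in both directions. The counts of calls stand beside 12.7% of all genes tested called lower and 11.0% called higher. Of 8 fat body genes, 6 were called lower. The 8 together summed to 927, 1804 and 552 CPM in the abd-A libraries, against 2826 and 22824 CPM in the CS libraries. Most of the abd-A sums came from apolpp, at 798, 1518 and 483 CPM, against 357 and 2450 CPM in the CS libraries. apolpp overlapped between the groups and was not called. Apoltp, at a log2 fold change of 0.78, overlapped and was not called either. Of 8 neuronal genes, 5 were called lower, and their sum was 77.1 to 131 CPM in the abd-A libraries, against 310.5 and 464 CPM in the CS libraries, with VGlut at 0 counts in all abd-A libraries, against 24 and 46 counts in the CS libraries. Of 6 larval cuticle genes, 5 were tested and 3 were called lower, with sums of 23.0 to 85.8 CPM in the abd-A libraries, against 514 and 2072 CPM in the CS libraries. The untested cuticle gene, Tb, had 0 counts in all abd-A libraries, against 0 and 4 counts in the CS libraries, too few for a comparison. Of 6 testis genes, 3 were tested and 2 were called lower. They summed to 0 to 0.224 CPM in the abd-A libraries, where 5 of 6 had no count, against 37.8 and 19.8 CPM in the CS libraries. Salivary gland genes summed to 0.671 to 2.18 CPM in the abd-A libraries, against 22.7 and 7.76 CPM in the CS libraries, with 4 of 6 and 1 of 6 at 0 throughout the group, and neither of the 2 tested was called. Midgut genes gave 1 lower and 2 higher calls among 7 tested, with sums of 39.1 to 63.8 CPM in the abd-A libraries, where 1 of 8 had no count, against 50.1 and 12.4 CPM in the CS libraries, where 3 of 8 had no count. The part of RNA from these tissues in the levels of the muscle genes was not tested.

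Blood cell markers were called in both directions. Of all genes tested, 12.7% were called lower and 11.0% were called higher. Lamellocytes are flattened hemocytes that are rare in healthy larvae, plasmatocytes are the common phagocytic hemocytes and crystal cells store prophenoloxidase. All 6 lamellocyte genes were called higher, with sums of 18208 to 21203 CPM in the abd-A libraries, against 1103 and 1541 CPM in the CS libraries. Of 6 plasmatocyte genes, 4 were called lower, with sums of 7082 to 8369 CPM in the abd-A libraries, against 21132 and 25776 CPM in the CS libraries, and all 4 crystal cell genes were called lower, with sums of 564 to 862 CPM in the abd-A libraries, against 8973 and 10793 CPM in the CS libraries. The part of these shifts in the muscle genes was not tested.

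**Figure D4:**
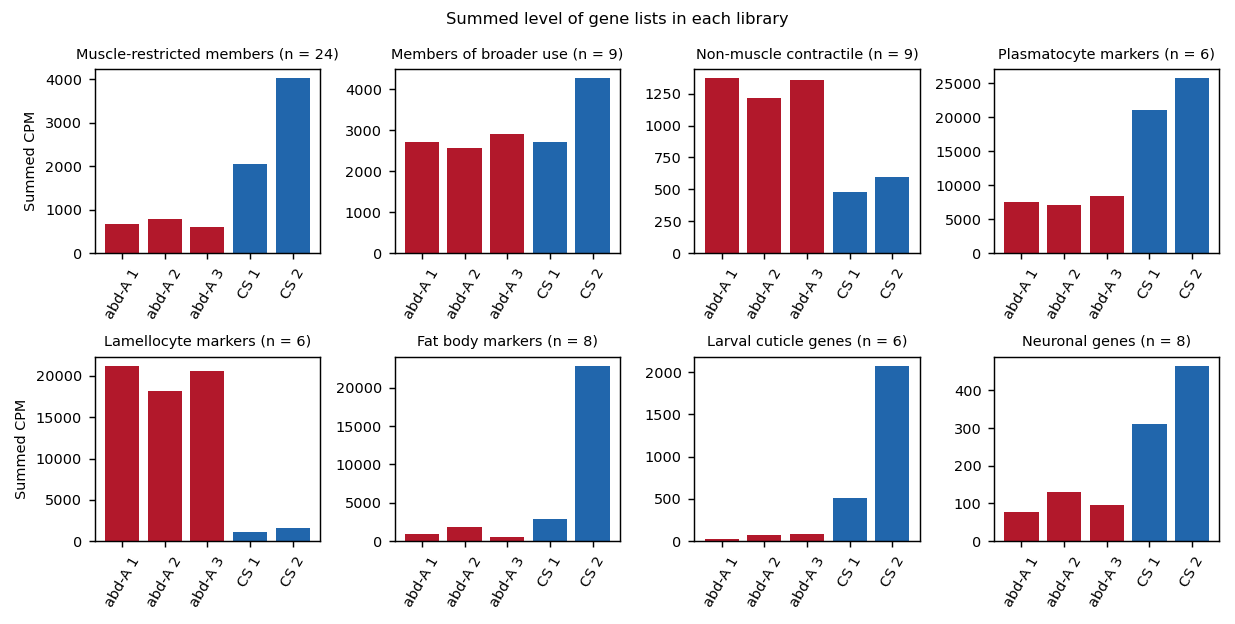
Summed CPM of 8 gene lists in each library, with the 3 abd-A libraries in red and the 2 CS libraries in blue and an axis from 0 for each list. The muscle-restricted members sum to 612 to 796 CPM in the abd-A libraries and to 2048 and 4030 CPM in the CS libraries, while non-muscle contractile genes sum to 1213 to 1372 CPM in the abd-A libraries and to 479 and 597 CPM in the CS libraries.

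The CS libraries were unlike each other in muscle transcripts. CS replicate 2 was above CS replicate 1 in 25 of the 31 tested members, beside 55.0% of all genes tested. The median ratio of CS replicate 2 to CS replicate 1 was 1.62 over the tested muscle-restricted members, beside 0.998 over all genes with a count in CS replicate 1. The ratio was 3.84 for Mhc, 2.36 for Mlc2 and 2.89 for Tm2, but 1.39 for bt, 1.33 for sls and 1.00 for Mp20. For the summed marker lists it was 8.08 for fat body, 4.03 for cuticle, 1.50 for neurons and 1.22 for plasmatocytes. Members thus differed in how far they varied between the pools of 1 genotype, and the mean of the CS libraries rests on 2 unlike pools.

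**Figure D5:**
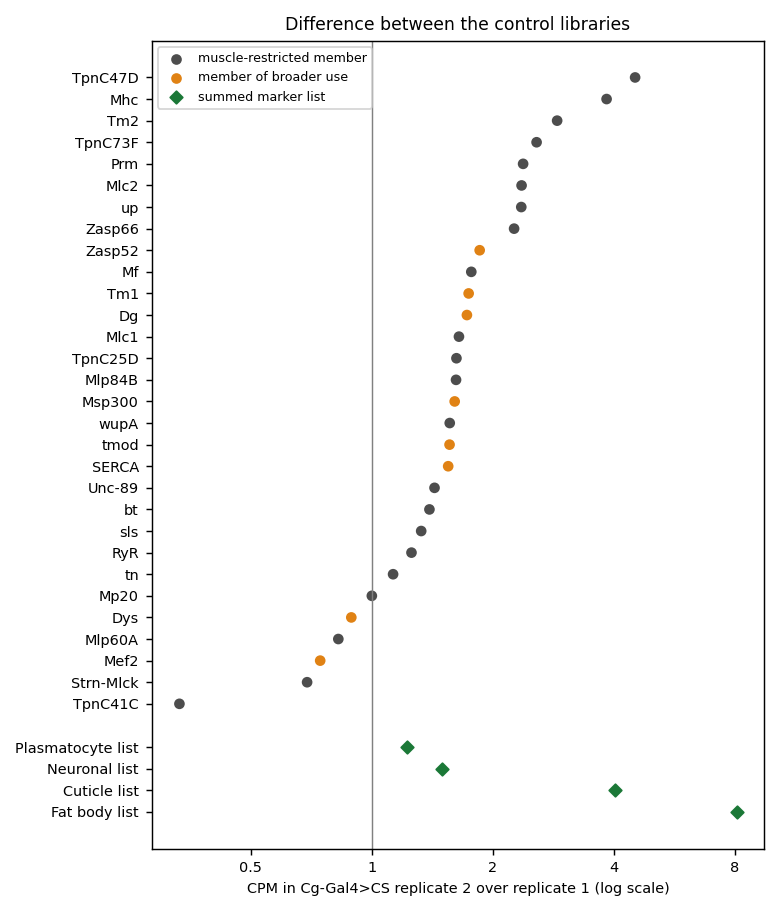
Level in CS replicate 2 over that in CS replicate 1, on a log axis, for the 30 tested muscle genes with a count in CS replicate 1 (Scgdelta had 0 counts there) and for 4 summed marker lists as green diamonds. Mhc lies at 3.84 and bt at 1.39, while the fat body list lies at 8.08 and the plasmatocyte list at 1.22.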

How the data were processed

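Hemolymph RNA of 3 abd-A pools and 2 CS pools was sequenced in pairs from a strand-keeping library kit. The table holds raw deposited counts, 1 value per gene and library, which the authors obtained with FastQC 0.11.7, STAR 2.5.2 on dm6 and HTSeq 0.11.2. The annotation release, the strand setting and the treatment of reads that match several genes are not given in the sources used here, so counts may hold reads from the strand opposite to a gene. All count columns matched a sample label and 0 columns were left unmapped. Groups came from the labels, which give no batch. The pools are separate, and p-values measure the spread between these pools only.

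Symbols, coordinates and exon lengths came from an Ensembl annotation of the same assembly, which matched 17710 of 17807 identifiers. Genes with at least 10 counts over the 5 libraries entered 1 fit of all libraries without covariates, made in edgeR 4.0.16 under R 4.3.3 by quasi-likelihood on TMM-scaled counts, with Benjamini-Hochberg adjustment over 11624 genes. Calls needed an adjusted p under 0.05 and at least 2-fold. The standard error is the log2 fold change divided by the root of its F value. Fold bounds use 3 counts per library as the floor, and such floors cover counting error only.

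The members and the gene lists were chosen with earlier results of these data known. Described in full were members that were called or abundant within their role, and of the other lists those called and the most abundant. In the non-muscle contractile list 9 of 10 names were matched, and the unmatched name was zip. Lists carry no test of their own. On simulated counts of 11433 genes, the fit of abd-A against CS recovered 23% of 100 genes changed 4-fold and 91% of 100 changed 16-fold, with 5 false calls, so a member that was not called may still have changed. Alternatives were other scalings, other count filters, the Wald test of DESeq2 1.42.0, voom of limma 3.58.1, a replicate block and each library left out in turn. Plots were drawn with matplotlib 3.10.9.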

Additional observations from a re-analysis of the deposited data

How the results depend on the processing

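The number of members called lower, 16, lay between 17 and 19 with other scalings, count filters, the DESeq2 Wald test and limma-voom, and between 10 and 18 with each library left out. The number called higher, 1, lay between 0 and 2 with each library left out. The median log2 fold change of the tested members was -1.28, and between -1.77 and -0.94 with each library left out. The number of other muscle genes called higher, 2, was 0 with at least 10 counts in every library, and between 1 and 3 with each library left out. The summed CPM of all members in abd-A replicates 1, 2 and 3, which was 3391, 3354 and 3528, was 3238, 3217 and 3397 under DESeq2 scaling, 3227, 3204 and 3349 under upper-quartile scaling and 3205, 3200 and 3344 when scaled by totals. Among the genes named, the sign changed only in genes that were not called in the fit of all libraries. The fat body gene apolpp was at -1.40 without CS replicate 1 and at 1.36 without CS replicate 2, so its direction depended on the CS library used. RyR was at -0.024 under DESeq2 scaling, -0.051 under upper-quartile scaling, -0.055 when scaled by totals and -0.026 in the Wald test. With each library left out RyR lay between -0.034 and 0.28, TpnC47D between -1.53 and 0.62, Scgdelta between -2.09 and 4.99, Hand between -2.24 and 5.42 and Ca-alpha1D between -0.58 and 0.083. The causes were not tested, and a lone CS library was assumed to vary like the abd-A libraries.

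The labels do not say whether same-numbered libraries were prepared together. Deviations of same-numbered libraries correlated at 0.018 and -0.0022. With 2 CS libraries the deviations mirror each other, so these values cannot settle whether the libraries were paired. With the replicate block, 11 members were called lower and 0 were called higher, 4 other muscle genes were called lower, and Ca-alpha1D was at 0.084. Over all genes tested, 831 were lower and 867 higher with the block, against 1481 and 1274 without it. With abd-A replicates 1, 2 or 3 left out, 744, 868 and 817 genes were lower and 693, 832 and 769 higher, and without CS replicate 2 there were 2278 higher genes. The smallest library limits what can be seen, since 3 counts in CS replicate 1 are worth 2.06 CPM, and absence of fln, Zasp67 or TpnC41C transcripts cannot be told from low levels.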

Other observations

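Further muscle genes were not called. Among the muscle glutamate receptors of the neuromuscular junction, GluRIIE had 12.3, 10.9 and 20.2 CPM in the abd-A libraries, against 51.5 and 22.5 CPM in the CS libraries. The groups of GluRIIE did not overlap, and its edgeR BH-adjusted p was 0.0745. GluRIIA had 0 counts in every abd-A library, against 8 and 0 counts in the CS libraries. Among the membrane proteins, the junctophilin gene jp, with 19.4 to 23.2 CPM in the abd-A libraries and 12.4 and 20.2 CPM in the CS libraries, and Amph, with 12.5 to 23.2 CPM in the abd-A libraries and 16.5 and 35.7 CPM in the CS libraries, overlapped between the groups.

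Dystrophin complex genes outside the 33 members had low levels. Scgalpha had counts of 0, 12 and 16 in the abd-A libraries, against 46 and 66 in the CS libraries. Syn1 had 12.7, 18.5 and 20.2 CPM in the abd-A libraries, against 65.9 and 68.3 CPM in the CS libraries. Dyb, for dystrobrevin, had 3.80, 8.17 and 4.26 CPM in the abd-A libraries, against 22.0 and 12.4 CPM in the CS libraries, and was not called. The abd-A libraries lay below both CS libraries in all 5 genes of this group, beside 29.3% of all genes tested, and 1 of the 5, Syn2, had counts of 2, 0 and 0 in the abd-A libraries, against 6 and 6 in the CS libraries. nau, the fly gene of the MyoD family, had counts of 11, 23 and 1 in the abd-A libraries, against 0 in both CS libraries, and its edgeR BH-adjusted p was 0.156.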
